A study of Mus musculus with 14 samples.

Results

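Chaperones fold and refold proteins, and the unfolded protein response adjusts the folding capacity of the endoplasmic reticulum (ER). Of 36 mouse genes of this kind, 34 were described: each has a probe set annotated to its symbol alone, and the brightest such probe set was taken. These 34 are part of 19752 genes with a probe set of their own, of which 11761 had a mean log2 intensity of at least 6.29 and were tested. All 34 passed that filter: 10 cytosolic, 3 mitochondrial and 21 ER genes. Hsp90ab1, a cytosolic Hsp90, and Hsf1, the heat shock transcription factor, had no probe set of their own and were not analysed here.

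RNA came from CD4+ T cells taken by negative selection from the spleens of male C57BL/6 mice aged 6 weeks. The cells were activated with CD3/28 beads for 48 h. Every culture described here then received interferon alpha (IFNa) at 100 U/ml together with 1 JAK inhibitor at its IC80, for 2 h or for 8 h. JAK inhibitors block the Janus kinases that carry cytokine receptor signals. The 7 inhibitors carry code names and target labels and are called here by their target: JAK1 is IFN.3404, JAK1/2 is IFN.6221, TYK2 is IFN.2485, JAK2 is IFN.3885 and PAN is IFN.6222. Both IFN.6226 and IFN.6228 are labelled JAK3 and keep their codes. Each inhibitor and time has 1 Affymetrix Mouse Gene 1.0 ST array, 14 in all. No test therefore measures the spread between cultures of 1 condition. Tests of time and of inhibitor classes measure how evenly a difference recurs over inhibitors. Tests of a single inhibitor, or of IFN.6226 against IFN.6228, ask instead whether a difference holds at both times. Their error carries no spread between inhibitors. Arrays without inhibitor were not analysed here, so time in culture, time in interferon and time in inhibitor cannot be told apart. In RNA from a bulk culture, fewer cells of a type and less RNA per cell cannot be told apart either.

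The T cell markers were far above the filter in every array, Cd3e at 12.37 and Cd4 at 11.82 on average (log2 intensity). Of the other lists, 2 of 2 CD8 T cell, 3 of 3 measured B cell, 2 of 4 plasma cell, 2 of 4 macrophage and 5 of 6 skeletal muscle markers were above the filter, and no granulocyte, NK cell or red cell marker was. The JAK1 array at 8 h stood apart: its upper quartile of intensity was the lowest of the 14 (398, against 427 to 497 at 8 h otherwise), and its mean Pearson r with the other arrays of that time was 0.990 (0.993 to 0.996 for the others).

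Hsp70 proteins such as Hspa8, Hspa9 and Hspa5 bind exposed hydrophobic stretches in the cytosol, the mitochondrial matrix and the ER, and J-domain cochaperones (the Dnaj genes) drive their ATP cycle. Hsp90 proteins act on clients that are close to folded, and the chaperonins, Hspd1 with its lid Hspe1 in mitochondria and the ring of Cct subunits in the cytosol, enclose a chain while it folds. When unfolded chains pile up in the ER, the sensors IRE1 (gene Ern1), ATF6 (Atf6) and PERK (Eif2ak3) signal to the nucleus. IRE1 does so by splicing the mRNA of the transcription factor Xbp1, and activated T cells, which grow and secrete cytokines, are known to use this pathway.

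Promoter windows, from 250 bases before to 50 bases after a gene's start, were available from RefSeq (GRCm38.p6) for 28 of the 34 genes, in 35 windows. They were searched for known stress elements, which the choice of genes did not use. The ER stress response element (ERSE, CCAAT and CCACG with 9 bases of any kind between them, searched on both strands) was in the windows of 8 of 18 ER genes and in 0 of 8 cytosolic and 0 of 2 mitochondrial genes. The other 10 ER genes lacked it too. Of all 32851 windows of the same length, 39 held it (0.119%). The element was first defined on genes of this kind, so its presence here is background. The sites are shown on the strand of the gene with 5 bases on each side and the element in capitals. It reads as CCAAT first on the gene's strand in Hspa5, Dnajc3, Pdia6, Canx, Syvn1 and the outer Hsp90b1 site, and as its reverse complement, CGTGG first, in Calr, Creld2 and the inner Hsp90b1 site.
Hspa5, chr2:34772020-34772048, + strand: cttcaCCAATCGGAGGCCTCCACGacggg
Hsp90b1, outer, chr10:86705633-86705661, - strand: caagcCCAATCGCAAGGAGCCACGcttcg
Hsp90b1, inner, chr10:86705528-86705556, - strand: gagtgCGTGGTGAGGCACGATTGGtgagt
Pdia6, chr12:17266486-17266514, + strand: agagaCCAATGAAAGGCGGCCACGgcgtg
Canx, chr11:50325795-50325823, - strand: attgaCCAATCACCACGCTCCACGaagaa
Calr, chr8:84847070-84847098, - strand: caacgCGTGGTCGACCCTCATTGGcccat
Creld2, chr15:88819515-88819543, + strand: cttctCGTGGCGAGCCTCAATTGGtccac
Dnajc3, chr14:118937822-118937850, + strand: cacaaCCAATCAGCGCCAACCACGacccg
Syvn1, chr19:6046527-6046555, + strand: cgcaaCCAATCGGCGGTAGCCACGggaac

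The Hspa5 site lies 65 to 47 bases before the start. It is shown again within the 160 bases before the start, because Hspa5 is the ER Hsp70 whose level is the usual readout of the response.
Hspa5 promoter, chr2:34771930-34772089, + strand: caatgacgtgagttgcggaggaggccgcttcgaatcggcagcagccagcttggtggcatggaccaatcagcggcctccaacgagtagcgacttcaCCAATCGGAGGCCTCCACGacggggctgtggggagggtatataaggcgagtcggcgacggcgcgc

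A second element, ERSE-II (ATTGG and CCACG with 1 base between them), was in the windows of Herpud1 and Dnajb11 and in 0.0365% of all windows. The Dnajb11 match lies 7 to 17 bases after the gene's start. The unfolded protein response element (UPRE, TGACGTGG) was in no member's window and in 0.676% of all windows. The heat shock element, bound by HSF1, was searched as 3 units in alternation, GAA and TTC, with 2 bases between units. It was in the windows of Hspd1, Hspe1 and Hsph1, in none of the 18 ER genes, and in 0.603% of all windows. The Hsph1 match lies after the gene's start, by 15 to 27 or 36 to 48 bases depending on the window. Hspd1 (chr1:55077833-55088243, - strand) and Hspe1 (chr1:55088148-55091317, + strand) overlap by 96 bases at their starts and share 1 stretch with the element, here on each gene's strand with the element in capitals.
Hspd1, chr1:55088053-55088082, - strand: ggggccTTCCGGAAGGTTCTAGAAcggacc
Hspe1, chr1:55088053-55088082, + strand: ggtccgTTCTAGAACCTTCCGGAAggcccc
These matches are letters in a window and say nothing on binding in these cells.

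From 2 h to 8 h the chaperones fell, in all 3 compartments. Of the 34 genes, 28 were lower and 3 higher at 8 h (limma, adjusted p under 0.05 over all genes tested), where 28.2% of all genes tested were lower and 21.4% higher (49.6% in either direction). The median change of the 34 was -0.27 on the log2 scale, against 0.02 over all genes. Of the cytosolic genes 10 of 10 were lower (median -0.38), of the mitochondrial 3 of 3 (-0.67), and of the ER genes 15 of 21 (-0.18), with 3 higher and 3 not called. The sign was negative with each of the 7 inhibitors in 25 genes (22.4% of all genes tested) and positive with each in 3 (16.1%). At 18 genes every 8 h array was below every 2 h array (15.6% of all genes tested), and at 1, Pdia3, every 8 h array was above (8.92%). The fit paired the arrays of each inhibitor, with n = 7 differences per gene.

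**Figure D1:**
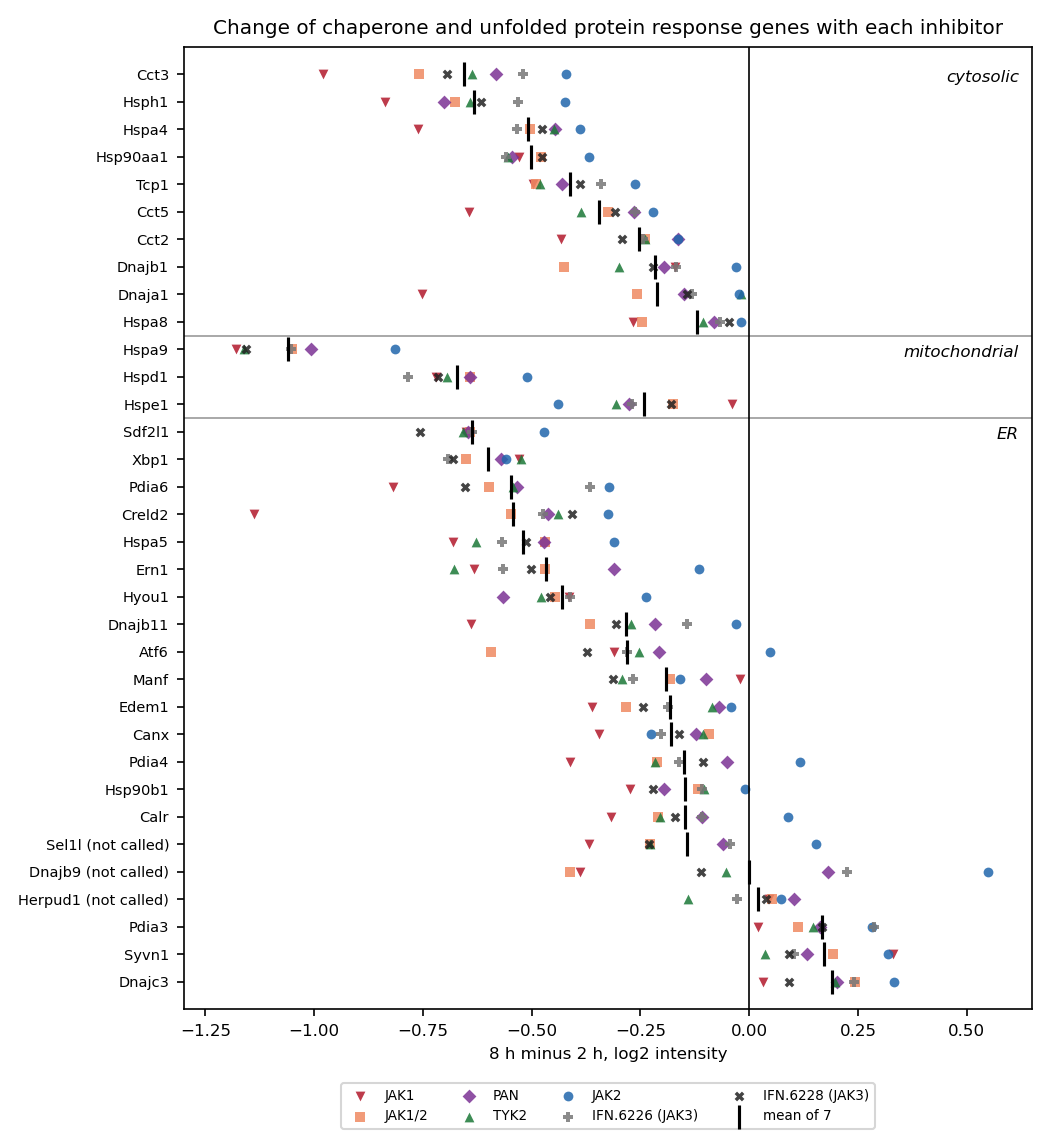
Change from 2 h to 8 h of each of the 34 genes, as 8 h minus 2 h in log2 intensity on the x axis, with 1 symbol per inhibitor and a black bar at the mean of the 7. All 10 cytosolic and 3 mitochondrial genes sit left of 0 with every inhibitor, Hspa9 lies farthest left on average, and Pdia3, Syvn1 and Dnajc3 lie right of 0.

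Hspa9, the mitochondrial Hsp70 that pulls proteins through the inner membrane, had the largest change. Its log2 intensity was 11.18 to 11.50 at 2 h (median 11.40) and 9.997 to 10.61 at 8 h (median 10.32). The ranges are far apart, and the JAK1 inhibitor gave the lowest array at both times. The fall was 1.06 (SE 0.05, adjusted p = 1.47e-09), a 2.09-fold difference, and ranged from -0.82 with the JAK2 inhibitor to -1.18 with JAK1. Hspd1, the mitochondrial chaperonin Hsp60, went from 11.47 to 11.68 at 2 h (median 11.55) to 10.75 to 11.10 at 8 h (median 10.88), a change of -0.67 (SE 0.04, adjusted p = 1.79e-08). Its lid Hspe1, which shares the divergent promoter shown above, changed less: from 11.27 to 11.76 (median 11.52) to 11.08 to 11.49 (median 11.23), a change of -0.24 (SE 0.05, adjusted p = 6.47e-04) with overlapping ranges. Hspe1 was lower at 8 h with all 7 inhibitors, by 0.04 at the least (JAK1) and 0.44 at the most (JAK2).

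Among the cytosolic genes the chaperonin subunits, which fold actin and tubulin, all fell. Cct3 went from 10.92 to 11.28 at 2 h (median 11.12) to 9.94 to 10.68 at 8 h (median 10.56). Its change was -0.66 (SE 0.06, adjusted p = 6.06e-07), without overlap of the times. The other subunits changed unequally: Tcp1 by -0.41, Cct5 by -0.35 and Cct2 by -0.25, all called and none overlapping between the times. The Hsp70 and Hsp90 machinery fell as well, 6 of 6 genes.

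Hsph1, an Hsp110 that recharges Hsp70 with ATP, was at 8.83 to 9.11 at 2 h (median 9.02) and at 8.09 to 8.55 at 8 h (median 8.43). Its change was -0.63 (SE 0.06, adjusted p = 9.83e-07). Hspa4, of the same family, went from 11.30 to 11.44 (median 11.38) to 10.57 to 10.99 (median 10.85), a change of -0.51 (SE 0.05, adjusted p = 8.22e-07). Hsp90aa1, the inducible cytosolic Hsp90, went from 11.95 to 12.13 (median 12.09) to 11.42 to 11.71 (median 11.55), a change of -0.50 (SE 0.04, adjusted p = 8.04e-08). None of these 3 overlapped between the times. The J-domain genes Dnajb1 (-0.22) and Dnaja1 (-0.21) and the constitutive Hsp70 gene Hspa8 (-0.12) changed least of this group.

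For 5 genes with several probe sets, the brightest one had numbers next to probe sets of another chromosome than the gene, so near-identical copies elsewhere cannot be separated from the gene by these arrays. With the probe set at the gene's own locus the changes were -0.76 for Hspd1, -0.48 for Hsp90aa1, -0.24 for Hspe1 and -0.12 for Hspa8, all called. Dnaja1 was then at -0.07 (limma, adjusted p = 0.322) and was not called. At these probe sets the change was not negative with every inhibitor for Dnaja1 (highest 0.06) and Hspa8 (highest 0.02). For Hspd1, Hsp90aa1 and Hspe1 it was.

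**Figure D2:**
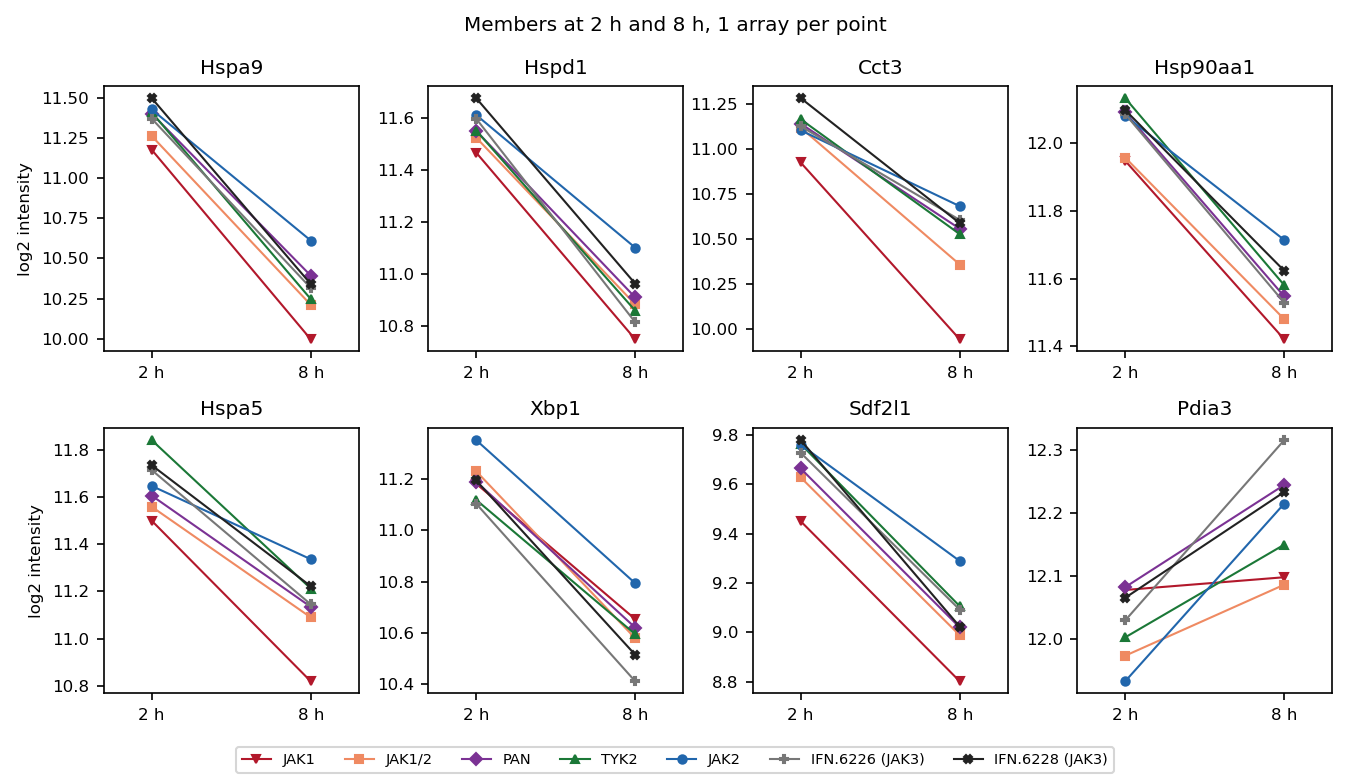
Log2 intensity (y axis, its own scale in each panel) at 2 h and 8 h of 8 genes, with 1 point per array and a line joining the arrays of an inhibitor. In 7 panels the 8 h points lie below all 2 h points, from Hspa9 (change -1.06) to Hsp90aa1 (-0.50), and in the Pdia3 panel they lie above (0.17).

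In the ER the Hsp70 and Hsp90 system was grouped with the stress-induced genes Creld2 and Manf, and 7 of these 9 genes fell (median -0.28). Hspa5, the ER Hsp70 also called BiP, was at 11.50 to 11.84 at 2 h (median 11.65) and at 10.82 to 11.34 at 8 h (median 11.15). Its change was -0.52 (SE 0.05, adjusted p = 5.15e-07), without overlap. Sdf2l1, a partner of the ER J-domain proteins, went from 9.45 to 9.78 (median 9.73) to 8.80 to 9.29 (median 9.02), a change of -0.64 (SE 0.05, adjusted p = 2.12e-07). Creld2, an ER stress-induced protein, went from 9.64 to 9.76 (median 9.72) to 8.57 to 9.39 (median 9.26), a change of -0.54 (SE 0.08, adjusted p = 7.78e-05). Neither overlapped between the times, and the 2 h values of Creld2 lay within 0.12 of each other. Hyou1, a large Hsp70 relative of the ER, changed by -0.43, the cochaperone Dnajb11 by -0.28, the stress-induced factor Manf by -0.19 and Hsp90b1, the ER Hsp90, by -0.15.

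Of this system Dnajc3, the J-domain protein P58IPK, rose. Its values were 9.56 to 9.88 at 2 h (median 9.64) and 9.59 to 9.97 at 8 h (median 9.89), a change of 0.19 (SE 0.05, adjusted p = 0.00656) with overlapping ranges and positive with 7 of 7 inhibitors. Dnajb9, a J-domain protein that restrains IRE1, had a change of -0.00 (SE 0.10, adjusted p = 0.99). That mean covers opposite signs, from -0.41 with JAK1/2 and -0.39 with JAK1 to 0.55 with JAK2.

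The lectin and disulfide isomerase genes, which fold glycoproteins and form disulfide bonds, split. Pdia6, a disulfide isomerase that acts on IRE1, went from 9.09 to 9.48 (median 9.27) to 8.27 to 8.92 (median 8.75), a change of -0.55 (SE 0.06, adjusted p = 8.04e-06) without overlap. Its relative Pdia3, which works with the calnexin cycle and loads MHC class I, rose from 11.93 to 12.08 at 2 h (median 12.03) to 12.09 to 12.32 at 8 h (median 12.21). The change of 0.17 (SE 0.04, adjusted p = 0.00223) was positive with 7 of 7 inhibitors. The lectins Canx (-0.18) and Calr (-0.15) and the isomerase Pdia4 (-0.15) were lower; Pdia4 missed the threshold in 9 of the alternatives tried.

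The sensors and their factor fell, 3 of 3 (median -0.47). Xbp1 was at 11.10 to 11.35 at 2 h (median 11.19) and at 10.41 to 10.79 at 8 h (median 10.59), a change of -0.60 (SE 0.04, adjusted p = 5.27e-08) of similar size with all inhibitors, from -0.52 to -0.69. The arrays measure its total mRNA and not the spliced form. Ern1, which encodes IRE1, went from 7.51 to 8.00 (median 7.73) to 7.14 to 7.39 (median 7.26), a change of -0.47 (SE 0.07, adjusted p = 1.01e-04). It did not overlap between the times. Atf6 went from 8.72 to 8.96 (median 8.85) to 8.37 to 8.77 (median 8.54), a change of -0.28 (SE 0.07, adjusted p = 0.00377). Its ranges overlapped, and with the JAK2 inhibitor it was 0.05 higher at 8 h.

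ER-associated degradation, which sends misfolded chains to the proteasome, had no common direction. Of its 4 genes, Edem1, which extracts misfolded glycoproteins, fell (-0.18), and Syvn1, the ubiquitin ligase HRD1, rose. Syvn1 was at 8.64 to 8.86 at 2 h (median 8.69) and 8.79 to 9.01 at 8 h (median 8.94), a change of 0.17 (SE 0.06, adjusted p = 0.0223). Its partner Sel1l (-0.14, SE 0.06, adjusted p = 0.0748) and Herpud1 (0.02, SE 0.05, adjusted p = 0.742) were not called. After centring each array on its median, Dnajc3 (0.16) and Syvn1 (0.14) kept their sign but did not pass.

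ER genes with and without the ERSE sites shown above had medians close to each other. Of the 8 ER genes with the element, 6 were lower and 2 higher (Dnajc3 and Syvn1), with a median of -0.16. Of the 10 with a window that lacks it, 6 were lower and 1 higher, with a median of -0.17. Dnajb11 and Herpud1, whose windows hold ERSE-II, are among these 10. For time, 28.2% of all genes tested were lower and 21.4% higher. No test was made on this split.

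The means of the B cell, CD8 T cell and T cell marker lists were higher at 8 h. Of the CD8 T cell markers, Cd8b1 rose by 0.42 (limma, SE 0.06, adjusted p = 2.45e-05), and Cd8a, at 0.14 (SE 0.08, adjusted p = 0.129), was not called. The mean log2 intensity of the 3 B cell markers was 8.39 to 8.61 at 2 h and 8.83 to 9.14 at 8 h. For the CD8 T cell markers it was 7.59 to 7.82 and then 7.94 to 8.16, and for the T cell markers 11.64 to 11.76 and then 11.93 to 12.01. Of the 2 macrophage markers above the filter, Ctss rose too, by 0.40 (limma, SE 0.06, adjusted p = 4.26e-05) and with 7 of 7 inhibitors. Lyz2, the other, was at -0.25 (SE 0.14, adjusted p = 0.159). The mean of the 4 macrophage markers was 6.495 to 6.78 at 2 h and 6.58 to 6.80 at 8 h. The plasma cell list, of cells rich in ER chaperones, was at 5.88 to 5.99 and then 5.86 to 6.05. Of its 4 genes Mzb1 (mean 7.37) and Sdc1 (6.53) were above the filter and Jchain (4.18) and Tnfrsf17 (5.68) below it. From 2 h to 8 h Mzb1 was at 0.06 (adjusted p = 0.477) and Sdc1 at -0.07 (adjusted p = 0.362). The part of other cells in the fall of the chaperones was not tested.

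Other genes of the same pathways moved less uniformly. Of 36 other cytosolic chaperones tested (of 40 listed), 21 were lower and 1 higher, with a median of -0.22. In this comparison 28.2% of all genes tested were lower and 21.4% higher. The 3 with the smallest p were Ptges3, the Hsp90 cochaperone p23 (-0.56, SE 0.04), Stip1, which links Hsp70 to Hsp90 (-0.57, SE 0.05), and the chaperonin subunit Cct6a (-0.61, SE 0.05). Pfdn5, a prefoldin subunit, was the 1 that rose (0.19, SE 0.07). Of 14 other mitochondrial chaperones and proteases, 9 were lower and 0 higher, with a median of -0.25. At an unadjusted p under 0.05 in either direction there were 12 of the 14 (limma), where 55.3% of all genes tested were. Leading them were the matrix protease Lonp1 (-0.55, SE 0.07), the inner membrane protease subunit Afg3l2 (-0.54, SE 0.07) and Clpp (-0.57, SE 0.08).

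Of 52 other ER folding and unfolded protein response genes tested (of 56 listed), 19 were lower and 4 higher, with a median of -0.06. Over all genes tested 28.2% were lower and 21.4% higher, with a median of 0.02. Atf4, the factor downstream of PERK, fell by 0.72 (SE 0.05, adjusted p = 9.16e-08), the disulfide isomerase Txndc5 by 0.49 (SE 0.06) and Stt3a of the oligosaccharyltransferase by 0.37 (SE 0.05). Ddit3, the stress factor CHOP that ATF4 is known to induce, rose by 0.56 (SE 0.09, adjusted p = 8.74e-05). The degradation genes Derl3 (0.48, SE 0.07) and Os9 (0.25, SE 0.05) rose too. The PERK gene Eif2ak3, chosen after its value was seen, fell by 0.36 (SE 0.07). So did Hsf2, a relative of Hsf1, by 0.84 (SE 0.08), also chosen after its value was seen.

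The fall recurred with every inhibitor at a different depth. The median change of the 34 genes was -0.42 with JAK1, -0.39 with JAK1/2, -0.31 with IFN.6228, -0.30 with TYK2, -0.27 with IFN.6226, -0.21 with PAN and -0.16 with JAK2. Over all genes tested these medians ran from -0.10 with JAK1 to 0.05 with JAK2, so the lowest and the highest were with the same inhibitors. The part of this difference in the depth of the fall was not tested. The cytosolic genes were at a median of -0.59 with JAK1 and -0.24 with JAK2, and the ER genes at -0.37 and -0.03. In the mitochondrial genes the lowest median was that of IFN.6226 (-0.78). The mean of the skeletal muscle markers, genes of another tissue, was 7.38 and 7.41 in the JAK1 and JAK1/2 arrays at 8 h and 7.34 in the JAK1/2 array at 2 h, against 6.62 to 6.86 in the other 11. Its part in the deeper falls with these inhibitors was not tested.

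**Figure D3:**
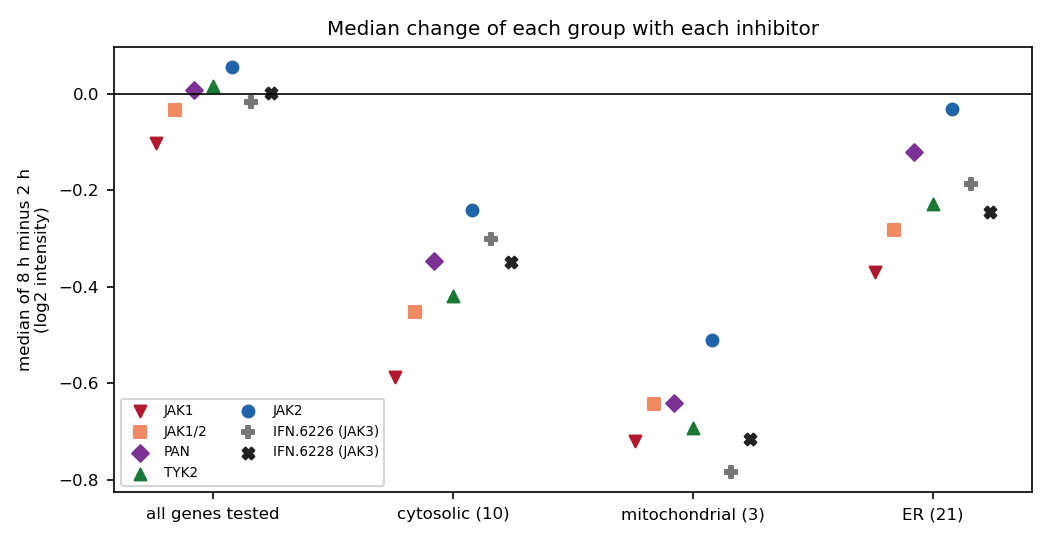
Median of 8 h minus 2 h in log2 intensity (y axis) for all genes tested and for the cytosolic, mitochondrial and ER genes, with 1 symbol per inhibitor. In each of the 3 groups all 7 symbols lie below 0, and the JAK2 inhibitor is the highest, from -0.51 in the mitochondrial to -0.03 in the ER genes.

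JAK1 and TYK2 are the kinases of the interferon alpha receptor. For this reason the 4 inhibitors naming JAK1, TYK2 or all JAKs (PAN) were set against the JAK2 and JAK3 inhibitors (n = 3). No member differed by limma at an adjusted p under 0.05 at 2 h, where 0.697% of all genes tested did, nor at 8 h (0%), for the mean of the times (0%) or in the change from 2 h to 8 h (0.102%). At an unadjusted p under 0.05 there were 0, 2, 4 and 1 members in turn, where 4.12%, 15.6%, 10.5% and 10.1% of all genes tested were. The median difference of the 34 genes was -0.04 at 2 h and -0.12 at 8 h, against 0.01 and -0.08 over all genes. The sign was negative in 22 of the 34 genes at 2 h and in 31 at 8 h, where it was negative in 47.1% and 70.4% of all genes tested.

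At 2 h the 3 genes with the smallest p were the mitochondrial ones: Hspe1 at -0.18 (SE 0.09), Hspa9 at -0.12 (SE 0.07) and Hspd1 at -0.11 (SE 0.05), with the same adjusted p in all 3, 0.995 (limma). At 8 h they were Pdia6 (-0.28, SE 0.12), Cct3 (-0.28, SE 0.13) and Hsph1 (-0.27, SE 0.10), with adjusted p from 0.307 to 0.319. The 95% interval of Hsph1 ran from -0.49 to -0.04 and that of Cct3 from -0.56 to 0.00. For the mean of the times Hsph1, Pdia6 and Dnajc3 led, at -0.17, -0.19 and -0.15 (adjusted p from 0.469 to 0.472). In the change with time Dnajb9 differed by -0.39 (SE 0.17), Tcp1 by -0.14 (SE 0.08) and Hspa8 by -0.13 (SE 0.06), with adjusted p from 0.479 to 0.485. The classes had no overlapping values in 2 members at 2 h, Hspa8 and Hspd1 (5.03% of all genes tested), in 7 at 8 h (19.2%), in 3 for the mean of the times (12.2%) and in 4 for the change with time (8.99%). Hsph1 was among them at 8 h, for the mean and for the change.

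JAK1 and JAK3 serve the interleukin-2 receptor and its relatives with the shared gamma chain. The 5 inhibitors naming either or all JAKs were set against JAK2 and TYK2 (n = 2). No member passed by limma at 2 h (0.051% of all genes tested did), at 8 h (0%) or for the mean of the times (0%), and 0 members had an unadjusted p under 0.05 in any of the 3. At 2 h Edem1 differed by 0.11 (SE 0.06), Pdia3 by 0.08 (SE 0.05) and Hspa5 by -0.12 (SE 0.08). At 8 h Sdf2l1 differed by -0.21 (SE 0.11), Hspa5 by -0.19 (SE 0.11) and Atf6 by -0.19 (SE 0.11). For the mean of the times Hspa5 (-0.16, SE 0.08), Sdf2l1 (-0.16, SE 0.08) and Hsp90aa1 (-0.10, SE 0.06) led, with an adjusted p of 0.999 each. The median of the 34 genes was -0.01 at 2 h and -0.12 at 8 h, against 0.02 and -0.06 over all genes. The classes had no overlapping values in 0 members at 2 h (15% of all genes tested), in 3 at 8 h (Atf6, Ern1 and Sdf2l1; 5.23%) and in 4 for the mean (Hspa5, Atf6, Sdf2l1 and Creld2; 6.44%).

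With single inhibitors, only the JAK1 inhibitor had members that passed, and their number moved with the arrays kept. Against the mean of the other 6 with time in the fit, 5 of the 34 were lower and 0 higher (limma; 17 of 34 at an unadjusted p under 0.05, against 26.0% of all genes tested), where 6.81% of all genes tested were lower and 0.961% higher (7.77% in either direction). The median of the 34 was -0.13 against -0.05 over all genes. In the next to brightest and the brightest of 5 equal groups of genes, which hold 28 of the 34, the median over all genes was -0.11 and -0.08.

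Cct3 had the largest difference, -0.42 (SE 0.08, n = 2 arrays against 12, adjusted p = 0.0096). With the JAK1 inhibitor it was at 10.92 at 2 h, against 11.10 to 11.28 with the others, and at 9.94 at 8 h, against 10.36 to 10.68. Pdia6 differed by -0.35 (SE 0.09, adjusted p = 0.0349), at 9.09 against 9.18 to 9.48 at 2 h and at 8.27 against 8.59 to 8.92 at 8 h. Hspa9 differed by -0.29 (SE 0.07, adjusted p = 0.0275), at 11.18 against 11.26 to 11.50 and at 9.997 against 10.21 to 10.61. Hspa5 differed by -0.28 (SE 0.07, adjusted p = 0.0239), at 11.50 against 11.56 to 11.84 and at 10.82 against 11.09 to 11.34. Sdf2l1, named after its value was seen, differed by -0.28 (SE 0.07, adjusted p = 0.0361), at 9.45 against 9.63 to 9.78 and at 8.80 against 8.99 to 9.29. In all 5 the JAK1 array was the lowest of the 7 at both times. With this inhibitor the macrophage marker Ctss was at -0.56 (limma, adjusted p = 9.95e-04) and the plasma cell marker Mzb1 at -0.36 (adjusted p = 0.0435). In both lists the other marker above the filter was the highest of the 7 arrays at 8 h. Lyz2 was at 7.35 with JAK1 at 2 h, against 6.785 to 7.70 with the others, and at 7.55 at 8 h, against 6.32 to 7.18. Sdc1 was at 6.83 at 2 h, against 6.41 to 6.64, and at 6.67 at 8 h, against 6.29 to 6.66. The mean of the macrophage list was 6.495 at 2 h with JAK1, the lowest of the 14 arrays but level with PAN at 2 h (6.496). At 8 h it was 6.66 with JAK1, where the 7 arrays ran from 6.58 to 6.80. The plasma cell list was at 5.99 and 5.95 with JAK1. The part of these markers, and of the muscle markers above, in the JAK1 values was not tested.

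Without the JAK1 array at 8 h, which leaves 1 JAK1 array, none of the 5 passed. Their differences were then -0.27 for Sdf2l1, close to its -0.28 with both arrays, -0.23 for Cct3, -0.22 for Hspa9, -0.19 for Pdia6 and -0.18 for Hspa5; the median of the 34 was -0.04, and Hspe1 alone passed. The number called was 2 without PAN, TYK2 or IFN.6226, 1 (Cct3) without IFN.6228 and 9 without JAK2. Why it moved was not tested. At 8 h the JAK1 array was below all other 6 in 22 of the 34 genes, where that held for 45.6% of all genes tested, and at 2 h in 13 (19.7%). The sensors and their factor had values near 0: Xbp1 was at 0.03 (SE 0.06), Ern1 at 0.07 (SE 0.10) and Atf6 at -0.00 (SE 0.10).

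**Figure D4:**
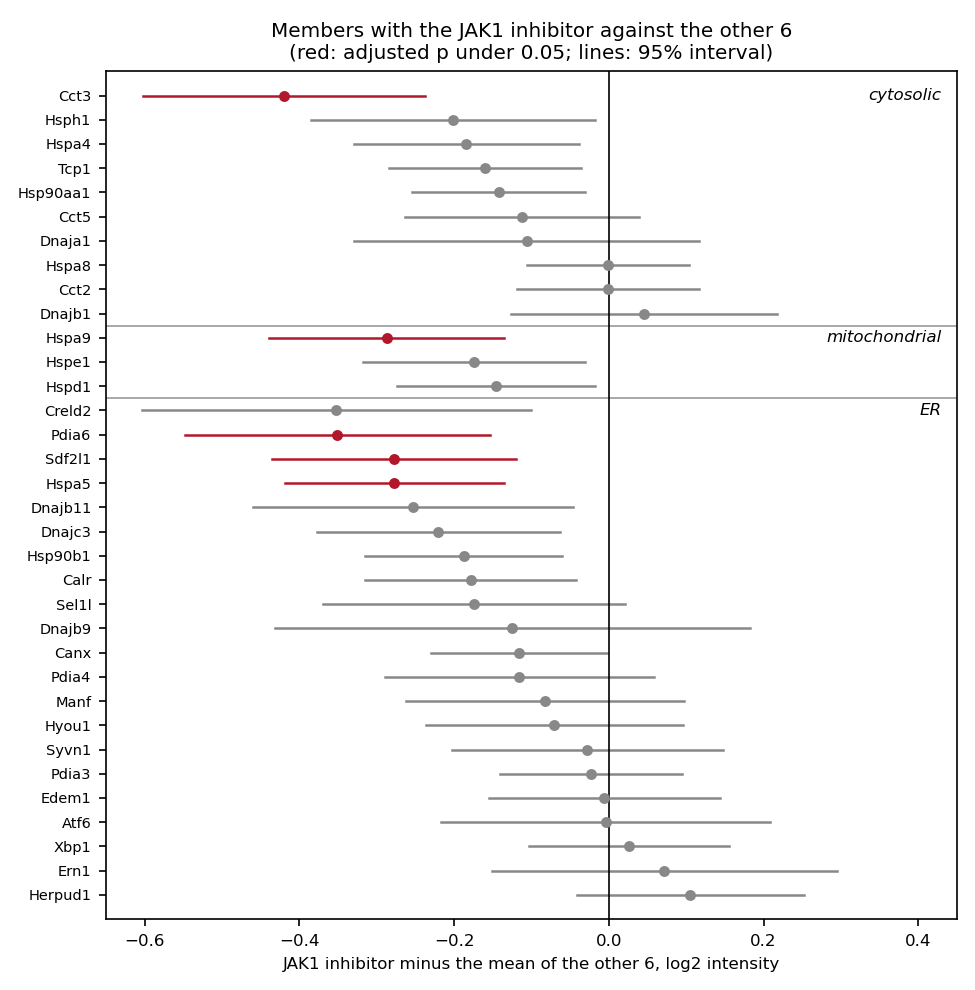
Difference of the JAK1 inhibitor from the mean of the other 6 in log2 intensity (x axis) for each of the 34 genes, with 95% intervals from limma, in red where the adjusted p was under 0.05. The 5 red genes lie between -0.42 (Cct3) and -0.28, and Xbp1, Ern1 and Atf6 lie near 0.

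Other genes of the pathways with the JAK1 inhibitor included 7 lower and 0 higher of 36 cytosolic, 2 lower of 14 mitochondrial, and 6 lower and 1 higher of 52 ER genes. Over all genes tested 6.81% were lower and 0.961% higher. The smallest p values were those of the chaperonin subunit Cct8 (-0.40, SE 0.07), the Hsp90 partner Cdc37 (-0.54, SE 0.10) and the prefoldin subunit Pfdn5 (-0.52, SE 0.10) in the cytosol. In mitochondria they were those of Lonp1 (-0.35, SE 0.09) and Clpx (-0.32, SE 0.09). In the ER they were those of Rpn2 of the oligosaccharyltransferase (-0.27, SE 0.07), the segregase Vcp (-0.23, SE 0.06) and Os9 (-0.30, SE 0.08), and Creb3l2, a membrane-bound transcription factor, was higher (0.45, SE 0.13). Pfdn5 and Os9, which rose with time over all inhibitors, were thus lower in level with JAK1 in the fit over both times. These are separate measures, and neither opposes the other.

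No member passed with any of the other 6 inhibitors (limma; 0.0085% of all genes tested for JAK1/2, 0.0765% for JAK2 and 0% for PAN, TYK2, IFN.6226 and IFN.6228). At an unadjusted p under 0.05 there were 3 members with JAK1/2, 4 with JAK2, 0 with PAN and 2 each with the other 3. Over all genes tested these shares were 5.22% with JAK1/2, 4.65% with JAK2, 0.323% with PAN, 4.84% with TYK2, 3.19% with IFN.6226 and 6.9% with IFN.6228. With the JAK2 inhibitor Xbp1 was at 0.21 (SE 0.06, adjusted p = 0.373), Hspa9 at 0.22 (SE 0.07) and Sdf2l1 at 0.19 (SE 0.07). Its 8 h array was above all other 6 in 23 of the 34 genes, where that held for 43.1% of all genes tested. With JAK1/2 Hspe1 was at -0.22 (SE 0.07), Hsph1 at -0.22 (SE 0.09) and Dnajb1 at -0.18 (SE 0.08), all 3 with an adjusted p of 0.935.

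With IFN.6226 Hspe1 was at 0.26 (SE 0.07, adjusted p = 0.469), Xbp1 at -0.16 (SE 0.06) and Pdia6 at 0.15 (SE 0.09). With IFN.6228 Pdia6 was at 0.20 (SE 0.09), Dnajc3 at 0.19 (SE 0.07) and Hsp90b1 at 0.14 (SE 0.06). With TYK2 Hspe1 was at 0.17 (SE 0.07), Hspa5 at 0.15 (SE 0.07) and Edem1 at -0.13 (SE 0.07). With PAN Ern1 was at -0.13 (SE 0.10), Hyou1 at -0.13 (SE 0.08) and Syvn1 at -0.12 (SE 0.08). Hspe1 thus had one of the 3 smallest p values with 3 of these 6 inhibitors, with both signs, and none of those values passed.

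IFN.6226 and IFN.6228 carry the same target label, JAK3, and were the 1 pair compared directly. No member passed (limma, 0% of all genes tested, and 0 members at an unadjusted p under 0.05), and the median difference of the 34 was -0.04, IFN.6226 minus IFN.6228. The smallest p values were those of Hyou1 at -0.15 (95% interval -0.37 to 0.06), Hsp90b1 at -0.11 (-0.28 to 0.05) and Hspd1 at -0.11 (-0.28 to 0.05). These intervals do not show that the inhibitors act alike.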

How the data were processed

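The authors deposited a table with the intensity of every probe set on each array, computed with Affymetrix Power Tools and RMA, per the submitters' processing notes, which give no versions. Which arrays were normalized together is not given in the sources used here. All values were positive, with array medians of 109 to 121, so the deposited intensities were taken to be linear and log2 was applied to them. Of 24922 probe sets, 21425 carried 1 symbol and were used. The brightest per gene was kept, and genes at or above the 40th percentile of mean log2 intensity were tested.

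limma 3.58.1 (R 4.3.3, lmFit and eBayes with a trend) was fitted to all 11761 genes, with inhibitor and time as terms or with 1 value per inhibitor for the classes, and p-values were adjusted by Benjamini-Hochberg over all genes tested. The scripts were tested on simulated data. The number of arrays limits the precision. The members, lists and tests were chosen with earlier results of these data known. Genes given in full were, for time, the 4 of largest change per compartment and direction among those called; elsewhere, the 4 with the smallest p per direction among those called, or the 3 with the smallest p where none was; and Xbp1, Atf6, Ern1 and Hspa5 throughout the time comparison. Of the other pathway genes the 3 with the smallest p per list and direction were named. Hsf1, also to be named, had no probe set. Promoter windows came from RefSeq (GRCm38.p6), and 6 members had none. Alternatives were scaling, filter, probe set, offset, variance moderation, pairing, and leaving out inhibitors or the JAK1 8 h array.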

Additional observations from a re-analysis of the deposited data

Results flagged for a closer look

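For each member the 7 inhibitors' changes from 2 h to 8 h were searched for 1 value far from the rest (a gap above Dixon's 95% critical value), as were the medians of the 3 compartments. Of 37 sets, 5 held such a value; chance marks about 1 in 20 sets. With the JAK1 inhibitor Creld2, the ER stress-induced protein, changed by -1.14, and the nearest of the other 6 inhibitors was at -0.55. The Hsp110 relative Hspa4 changed by -0.76 with JAK1 (nearest -0.53), the J-domain gene Dnaja1 by -0.75 (nearest -0.26) and the chaperonin subunit Cct5 by -0.65 (nearest -0.39). At the probe set of its own locus, the changes of Dnaja1 with the 7 inhibitors lay between -0.26 and 0.06. All 4 values use both JAK1 arrays, of which the one at 8 h stood apart in its upper quartile of intensity. In all 4 genes the JAK1 array was the lowest at 8 h. Dnaja1 with JAK1 was also the highest at 2 h, at 11.29 against 11.05 to 11.19 with the others. So was Cct5, at 11.72 against 11.63 to 11.71. Hspa4 and Creld2 were within the range of the others at 2 h. With the JAK2 inhibitor Sdf2l1 changed by -0.47, less than with the others (nearest -0.64). The part of single arrays in these values was not tested.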

How the results depend on the processing

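For 8 h against 2 h, the count of members called was 31 and stayed between 29 and 32 under every alternative, always with the same sign. Calls that were lost under at least 1 alternative were those of Manf, Dnajc3, Syvn1, Pdia4, Dnaja1 and Hspa8, while Ern1 was removed by the 60th percentile filter; Sel1l passed without the JAK2 inhibitor. Using probe sets at the gene's own locus was chosen after seeing the data. For the JAK1 inhibitor against the other 6, the count of 5 became 2 after median centring, 3 with no filter, 3 with no variance trend and 1 without its 8 h array; leaving out 1 of the other inhibitors gave 1 to 9. After cyclic loess 4 were lower and 1, Herpud1, higher, and the median of the 34 was -0.07 (0.00 over all genes). The causes were not tested. The share of all genes called under each alternative, for time or for JAK1, is not given here. These counts are therefore not read as particular to the members. In the 14 other comparisons the count was 0 under every alternative run. Leaving an inhibitor out of its own comparison gives no value, and for the class comparisons over both times, leaving out the JAK1 8 h array is the same as leaving out that inhibitor. The time comparison is paired by inhibitor; without that pairing 31 members were called as well. Each condition has 1 array, so small differences between inhibitors may be missed.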
